A study of Mus musculus with 24 samples.

Results

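Transcripts of 10 genes of amino acid signalling at the lysosome were followed in sorted nociceptors of mice with and without the kinase brake Tsc2. They are the 4 Rag GTPase genes (Rraga, Rragb, Rragc, Rragd), the folliculin gene Flcn with its partners Fnip1 and Fnip2, and the transcription factor genes Tfeb, Tfe3 and Mitf. They were chosen by name as the members of this pathway, with earlier results of these data known. All 10 were found among the 47643 gene identifiers of the count files, of which 30194 had a count in at least 1 library. Each gene was read as its count of RNA-seq reads in L4 dorsal root ganglion (DRG) cells that had been sorted for GFP. All mice carried Nav1.8-Cre and the reporter Rosa26-ZsGreen. Control mice were Tsc2 flox/+ beside these, and Nav-Tsc2 mice were Tsc2 flox/null, so both genotypes held a floxed allele. All mice were of a mixed C57BL/6 and AJ strain and 8 to 9 weeks old, and their ganglia were taken on the side opposite a sciatic nerve crush, 3 d after it. There were 4 mice per genotype, 2 male (replicates 1 and 2) and 2 female (replicates 3 and 4), and each mouse gave 3 libraries of 100 cells, which were summed. Cre was driven by the gene of the sodium channel Nav1.8, which is used mostly by nociceptors but also by some neurons with myelinated axons. Where Cre had acted, control cells had lost 1 of their Tsc2 alleles, and every cell of a Nav-Tsc2 mouse carried the null allele whether or not it made Cre. The sorted cells thus differed in having a single intact allele or none.

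Rag GTPases work as pairs on the lysosomal surface, RagA or RagB bound to RagC or RagD, and bring mTORC1 there when amino acids are plentiful. Folliculin, bound to Fnip1 or Fnip2, acts on RagC and RagD, and the Rag pair in that state presents TFEB, TFE3 and MITF to mTORC1, whose phosphorylation keeps these factors out of the nucleus. Factors that escape it enter the nucleus and bind CACGTG-type E-box motifs near the starts of lysosomal, autophagy and metabolic genes, among them genes of the Rag and folliculin families. The TSC complex, whose catalytic subunit is the product of Tsc2, restrains mTORC1 through another small GTPase, Rheb.

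The promoters that hold the motif are shown here because the motif links the transcription factors of the set to other genes of the set. RefSeq windows of 250 bases before to 50 bases after a transcript start (GRCm38.p6) were found for all 10 genes, 15 windows in all. The motif searched was CACGTG, which reads the same on both strands. It stood in 3 of the 15 windows, 1 each for Rragc, Fnip1 and Rragb, against 7.15% of all 32851 windows. Bases are counted back from the RefSeq transcript start. In Rragc the motif began 112 bases before the start, in Fnip1 75 bases before it, and in Rragb 127, 36 and 3 bases before it, the last crossing the start. Each of the 3 genes also held the longer form TCACGTG on either strand, which overlaps the first motif and stood in 3.77% of all windows. The full palindrome TCACGTGA (0.974% of windows) and the related CATGTG (14.2% of windows, either strand) stood in none of the 15. The stretches run from 140 bases before the start to 3 bases after it, on the plus strand, at chr4:123917293-123917435 for Rragc, chr11:54438039-54438181 for Fnip1 and chrX:153139818-153139960 for Rragb. Capitals mark CACGTG.
Rragc: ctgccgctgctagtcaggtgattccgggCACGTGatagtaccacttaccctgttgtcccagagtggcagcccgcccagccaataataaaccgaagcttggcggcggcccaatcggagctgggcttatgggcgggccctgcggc
Fnip1: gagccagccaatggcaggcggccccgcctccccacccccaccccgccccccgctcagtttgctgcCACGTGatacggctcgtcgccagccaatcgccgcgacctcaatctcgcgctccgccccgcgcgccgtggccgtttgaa
Rragb: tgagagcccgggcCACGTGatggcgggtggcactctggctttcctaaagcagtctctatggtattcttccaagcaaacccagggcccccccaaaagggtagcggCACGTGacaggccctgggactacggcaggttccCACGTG

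In Nav-Tsc2 nociceptors, transcripts of 4 of the 10 genes rose: Fnip2, Fnip1, Rragc and Rragd. None of the 10 fell by the same criteria in edgeR, while DESeq2 called Rragb lower, and the other 6 did not pass them. Genes were called when the edgeR quasi-likelihood test gave a Benjamini-Hochberg adjusted p under 0.05 over all 17178 genes tested and the log2 fold change was over 0.5 or under -0.5. By that rule 17.1% of all genes were called, 9.12% higher and 8% lower. An unadjusted p under 0.05 was reached by 6 of the 10, all of them higher. The share of all genes at that p was not counted, here or for the lists below, so such counts are description only. The median log2 fold change of the 10 genes was 0.52, and that of all genes tested was 0.01. Values are normalized CPM, counts of a gene relative to the counts on all genes of that mouse and scaled by the TMM method, and are listed for replicates 1 to 4. All 4 Nav-Tsc2 mice lay above all 4 control mice for 5 of the 10 genes, Rragc, Rragd, Fnip1, Fnip2 and Tfe3, which was so for 14.6% of all genes tested, and below them for Rragb, as for 12.3% of all genes.

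**Figure D1:**
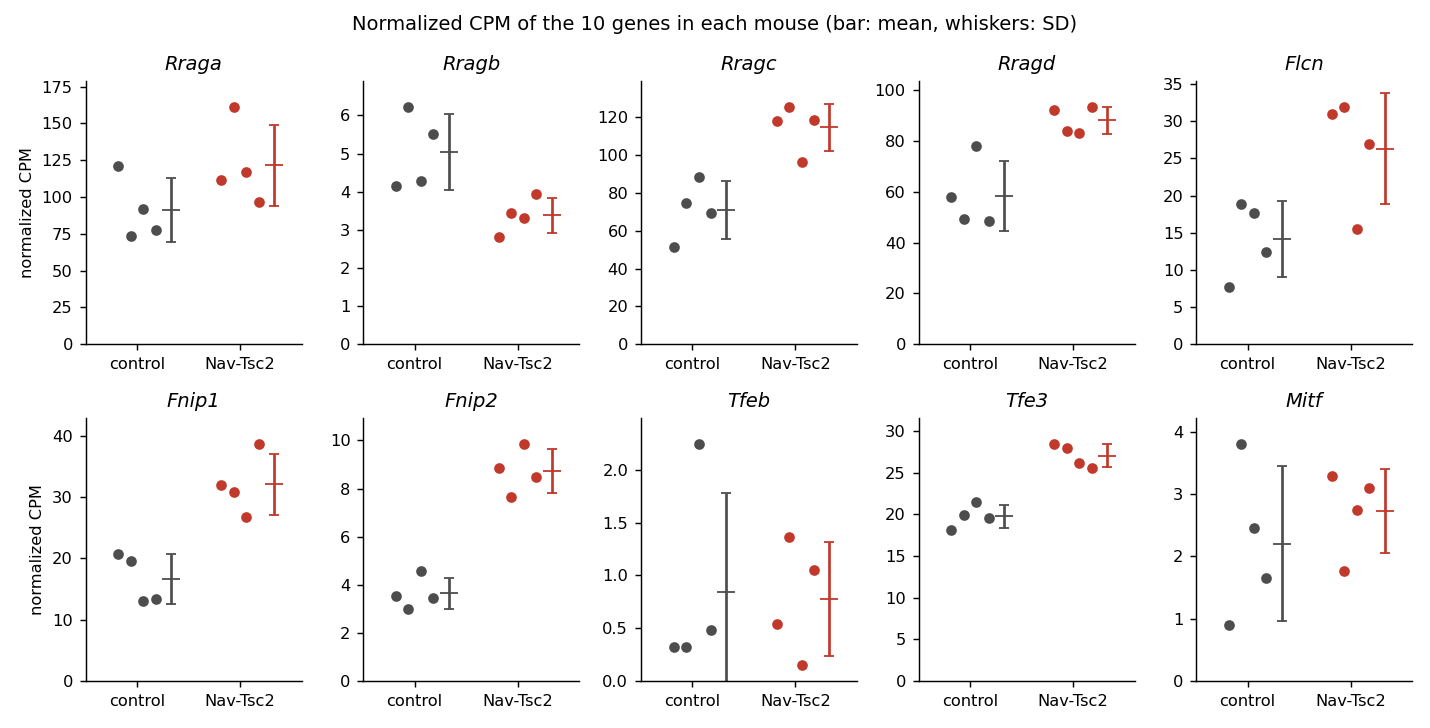
Normalized CPM (vertical axes from 0, a scale for each gene) of the 10 genes in each of 4 control (grey) and 4 Nav-Tsc2 mice (red), with the mean as a bar and the SD as whiskers; the lower whisker of Tfeb in control is cut at 0. The 2 genotypes do not overlap for Rragb, Rragc, Rragd, Fnip1, Fnip2 and Tfe3, and they overlap for Rraga, Flcn, Tfeb and Mitf.

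The targeted gene was lower, as the genotype labels give it. Tsc2 stood at 13.4, 24.7, 21.5 and 24.1 CPM in control mice and at 8.70, 8.51, 7.30 and 10.95 CPM in Nav-Tsc2 mice. No mice overlapped, and the log2 fold change was -1.24 (SE 0.22, edgeR adjusted p = 0.00400). The count covers all exons of Tsc2, the floxed ones not being counted apart, and 7.20% of its exon bases lie on the other strand of Pkd1. The library kit did not keep strand, so reads from such overlaps cannot be assigned to either gene. The 24 libraries held 8339220 to 34228180 counts on genes, and summed per mouse 47959617 to 61290435. Neuronal markers were abundant, with the Nav1.8 gene Scn10a at a mean of 670 CPM in control and 608 CPM in Nav-Tsc2 mice and the neuronal tubulin Tubb3 at 5908 and 7774 CPM. Of 8 neuronal markers 4 were called lower, among them Snap25, Calca and Rbfox3 (log2 fold changes -1.102, -1.99 and -0.83), and Prph was called higher (0.72). Of 10 glial markers S100b alone was called, at a mean of 939 CPM in control and 98.6 CPM in Nav-Tsc2 mice, and their summed level lay between 2873 and 3035 CPM in control and between 1884 and 2459 CPM in Nav-Tsc2 mice. Summed endothelial markers lay between 0.326 and 1.85 CPM in control and between 7.73 and 20.1 CPM in Nav-Tsc2 mice. All 3 of the 6 that were tested were called higher, Flt1, Ly6c1 and Kdr, while the defining Pecam1 stood at 0.422 and 0.315 CPM. Summed macrophage markers lay between 4.35 and 10.5 CPM and between 8.78 and 25.9 CPM, with Cx3cr1 the only marker called of 6 tested out of 11 and the defining C1qa at 0.0201 and 0.0212 CPM. The part of these cells in the results below was not tested, and fewer cells of a type and less RNA per cell cannot be told apart in such pools.

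Among the Rag GTPases, both genes of the RagC and RagD side rose. Rragc, whose product is the partner that folliculin acts on, stood at 51.3, 74.5, 88.4 and 69.5 CPM in control mice and at 118, 125, 96.4 and 119 CPM in Nav-Tsc2 mice. The highest control mouse and the lowest Nav-Tsc2 mouse, both replicate 3, came closest to each other without overlapping. Rragc rose from a mean of 70.9 CPM ± 15.3 (SD, n = 4) to 115 CPM ± 12.6 (SD, n = 4), a log2 fold change of 0.69 (SE 0.16, edgeR adjusted p = 0.0135). It was called in all 17 other fits of the same counts, where its largest adjusted p was 0.0422. The gene lies at chr4:123917446-123936997 (GRCm38), and 7.90% of its exon bases overlap a gene on the other strand, 4930535I16Rik. Rragd, the paralog of Rragc, stood at 58.0, 49.1, 78.1 and 48.5 CPM in control mice and at 92.2, 83.8, 83.3 and 93.2 CPM in Nav-Tsc2 mice. Its Nav-Tsc2 mice lay close together, and control replicate 3 was the only control mouse near them. Rragd rose from 58.5 CPM ± 13.8 (SD, n = 4) to 88.1 CPM ± 5.30 (SD, n = 4), with a log2 fold change of 0.59 (SE 0.15, edgeR adjusted p = 0.0223). The call was lost without control replicate 2 (edgeR adjusted p = 0.0547), control replicate 4 (0.0527), Nav-Tsc2 replicate 1 (0.0635) or Nav-Tsc2 replicate 4 (0.0606), with the log2 fold change between 0.51 and 0.57 in these fits.

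The RagA and RagB side did not pass the test, and its genes had opposite signs. Rraga, the more abundant paralog, stood at 121, 73.4, 91.8 and 77.8 CPM in control mice and at 112, 161, 117 and 96.6 CPM in Nav-Tsc2 mice. Control replicate 1 lay within the Nav-Tsc2 range. The log2 fold change was 0.42 (SE 0.19, edgeR adjusted p = 0.162). Rragb, an X-linked paralog known for its expression in brain, stood at 4.15, 6.21, 4.27 and 5.52 CPM in control mice and at 2.82, 3.45, 3.32 and 3.94 CPM in Nav-Tsc2 mice. All 4 Nav-Tsc2 mice lay below all control mice, the narrowest gap being between Nav-Tsc2 replicate 4 and control replicate 1. The log2 fold change of Rragb was -0.57 (SE 0.26, edgeR adjusted p = 0.149), and of the 17 other fits only DESeq2 called it lower (DESeq2 adjusted p = 0.0414). Per kilobase of merged exons, Rragb made up 2.39%, 5.72%, 3.22% and 4.84% of the sum of Rraga and Rragb in control mice and 1.78%, 1.51%, 1.99% and 2.84% in Nav-Tsc2 mice. These shares overlapped only through control replicate 1. Rragd made up 34.9% ± 5.64 (SD, n = 4) of the sum of Rragc and Rragd in control and 33.3% ± 2.33 (SD, n = 4) in Nav-Tsc2 mice, a difference smaller than the spread between mice. The shares were not tested.

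**Figure D2:**
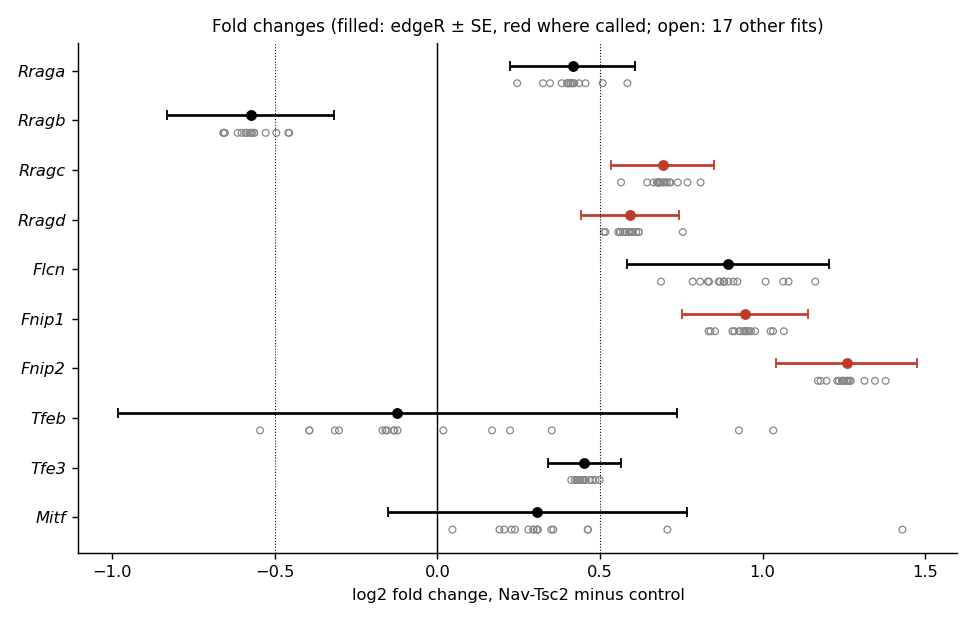
Log2 fold change of the 10 genes, Nav-Tsc2 minus control (horizontal axis), with filled points and whiskers for the edgeR estimate and its SE, red where called, and open points for 17 other fits of the same counts. Dotted lines mark -0.5 and 0.5. Rragc, Rragd, Flcn, Fnip1 and Fnip2 stay right of 0.5 in all fits, while the fits of Tfeb fall on both sides of 0.

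Both folliculin partners rose. Fnip2, a folliculin partner, stood at 3.52, 3.01, 4.56 and 3.45 CPM in control mice and at 8.87, 7.64, 9.85 and 8.48 CPM in Nav-Tsc2 mice. The lowest Nav-Tsc2 mouse lay well above the highest control mouse. Fnip2 rose from 3.64 CPM ± 0.655 (SD, n = 4) to 8.71 CPM ± 0.915 (SD, n = 4), a log2 fold change of 1.26 (SE 0.22, edgeR adjusted p = 0.00341). Fnip1 stood at 20.7, 19.6, 13.0 and 13.4 CPM in control mice and at 32.1, 30.9, 26.8 and 38.7 CPM in Nav-Tsc2 mice. Even the single libraries of Fnip1 did not overlap, with 9.76 to 21.4 CPM in the 12 control and 24.7 to 43.4 CPM in the 12 Nav-Tsc2 libraries. Fnip1 rose from 16.7 CPM ± 4.03 (SD, n = 4) to 32.1 CPM ± 4.93 (SD, n = 4), a log2 fold change of 0.95 (SE 0.19, edgeR adjusted p = 0.00769). Fnip1 and Fnip2 were called in all 17 other fits, where the largest adjusted p was 0.0285 for Fnip1 and 0.0157 for Fnip2. Per kilobase, Fnip2 made up 16.3% ± 5.26 (SD, n = 4) of the sum of both partners in control and 19.0% ± 3.49 (SD, n = 4) in Nav-Tsc2 mice, a difference smaller than the spread between mice.

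Flcn, which encodes folliculin itself, was the most variable of the 3 folliculin genes and was not called. Flcn stood at 7.68, 18.9, 17.6 and 12.4 CPM in control mice and at 30.9, 31.9, 15.5 and 26.9 CPM in Nav-Tsc2 mice. Nav-Tsc2 replicate 3 lay among the control mice and the other 3 lay above all of them. The means were 14.2 CPM ± 5.15 (SD, n = 4) and 26.3 CPM ± 7.49 (SD, n = 4), with a log2 fold change of 0.89 (SE 0.31, edgeR adjusted p = 0.0690). Without that replicate the log2 fold change was 1.08 (edgeR adjusted p = 0.0363), and DESeq2 on all mice also called it (DESeq2 adjusted p = 0.0254), as did limma-voom fitted to single libraries with a random term for the mouse (limma adjusted p = 0.0228). Only these 3 of the 17 other fits called Flcn. Its edgeR adjusted p was 0.120 with the replicate block and reached 0.169 without Nav-Tsc2 replicate 2. Single libraries of Flcn ranged from 1.12 to 31.7 CPM in control and from 4.67 to 34.5 CPM in Nav-Tsc2 mice, the lowest holding 15 counts.

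**Figure D3:**
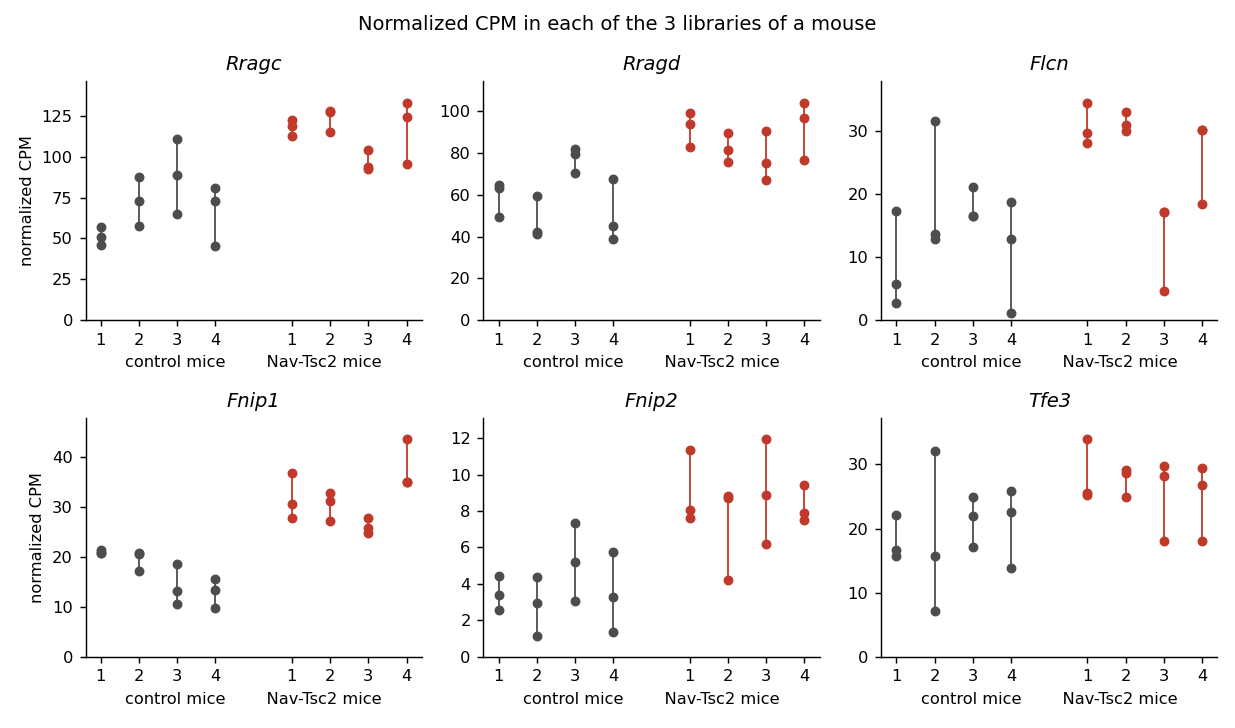
Normalized CPM (vertical axes from 0) of Rragc, Rragd, Flcn, Fnip1, Fnip2 and Tfe3 in each of the 3 libraries of 100 cells (points, joined by a line) of 4 control (grey) and 4 Nav-Tsc2 mice (red). The libraries of Fnip1 do not overlap between genotypes, while those of Flcn spread from 1.12 to 31.7 CPM within control.

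Of the transcription factors of the MiT/TFE family, TFE3 had by far the most transcript in these cells. Tfe3 stood at 18.1, 19.9, 21.5 and 19.6 CPM in control mice and at 28.4, 28.0, 26.1 and 25.6 CPM in Nav-Tsc2 mice. The mice of each genotype lay within a few CPM of each other and the genotypes did not overlap. The means were 19.8 CPM ± 1.37 (SD, n = 4) and 27.0 CPM ± 1.39 (SD, n = 4), and the log2 fold change of 0.45 (SE 0.11) had an edgeR adjusted p of 0.0189 but stayed under the fold threshold. That p rose past 0.05 with the replicate number as a block (edgeR adjusted p = 0.0610) and without Nav-Tsc2 replicate 1 (0.0658) or replicate 2 (0.0570). Tfeb, often studied as the master factor of lysosome biogenesis, stood at 0.322, 0.322, 2.24 and 0.482 CPM in control mice and at 0.535, 1.36, 0.147 and 1.05 CPM in Nav-Tsc2 mice. Control replicate 3 was the highest of all 8 mice. The other control mice lay above Nav-Tsc2 replicate 3, the lowest of all, and below the other Nav-Tsc2 mice. In all, Tfeb had 184 counts in control and 174 in Nav-Tsc2 libraries, with 4 of 12 and 1 of 12 libraries at 0. Its log2 fold change was -0.12 (SE 0.86, edgeR adjusted p = 0.945), and without control replicate 3 it was 1.03 (edgeR adjusted p = 0.403), so no direction can be given for Tfeb.

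Mitf, known best as the regulator of pigment cells, stood at 0.898, 3.81, 2.46 and 1.65 CPM in control mice and at 3.29, 1.77, 2.74 and 3.10 CPM in Nav-Tsc2 mice. The genotypes overlapped over most of the range. For Mitf the log2 fold change was 0.31 (SE 0.46, edgeR adjusted p = 0.697). Of 5 melanocyte markers 2 were tested, and Tyrp1 was called lower, at 7.21 CPM ± 0.587 (SD, n = 4) in control and 3.31 CPM ± 1.096 (SD, n = 4) in Nav-Tsc2 mice, while the defining Tyr stood at 0.0241 and 0 CPM. The paper lists Tyrp1, from an earlier study, among genes enriched in sensory neurons that do not bind the lectin IB4 (IB4-negative). It did not count Tyrp1 as changed. Which cells gave the Tyrp1 reads was not tested. The fourth gene of the family, Tfec, had 0 counts in all 24 libraries. With 220564026 counts in control and 222171786 in Nav-Tsc2 libraries, 0 counts allow a level of up to 0.0136 and 0.0135 CPM, for counting error only.

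Set side by side per length, the 10 genes spanned a wide range in control nociceptors. Normalized CPM per kilobase of merged exons averaged 56.3 for Rraga, 21.2 for Rragc, 11.3 for Rragd, 3.28 for Flcn, 2.34 for Fnip1, 2.23 for Rragb, 2.13 for Tfe3, 0.435 for Fnip2, 0.356 for Mitf and 0.149 for Tfeb. The Rag genes other than Rragb therefore led the order. The ranges of the 4 control mice overlapped between the neighbours Flcn and Fnip1, Fnip1 and Rragb, Rragb and Tfe3, Fnip2 and Mitf, and Mitf and Tfeb, so these neighbours did not differ beyond their spread. In Nav-Tsc2 mice the order was 75.1 for Rraga, 34.3 for Rragc, 17.03 for Rragd, 6.08 for Flcn, 4.51 for Fnip1, 2.92 for Tfe3, 1.498 for Rragb, 1.04 for Fnip2, 0.440 for Mitf and 0.136 for Tfeb. There Flcn and Fnip1 were the only neighbours whose mice overlapped, and Tfe3 stood above Rragb instead of below it. With the longest transcript in place of merged exons, the control level of Tfe3 was 3.12 and that of Tfeb 0.360 CPM per kilobase. On that scale Tfe3 stood above Rragb (2.23) in control as well, so the change in their order was not seen.

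**Figure D4:**
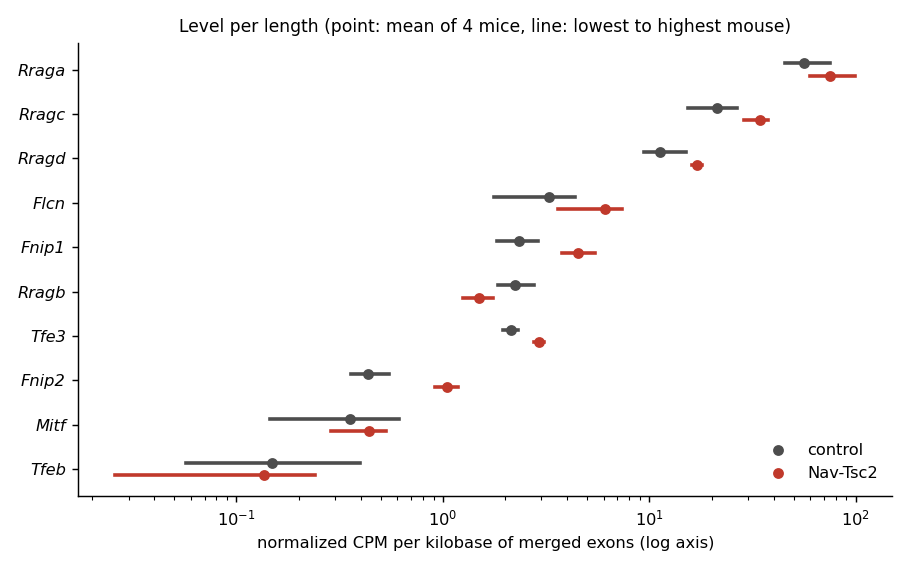
Normalized CPM per kilobase of merged exons (horizontal log axis) of the 10 genes in control (grey) and Nav-Tsc2 mice (red), with the mean of 4 mice as a point and the lowest to highest mouse as a line. Rraga leads at 56.3 in control and 75.1 in Nav-Tsc2 mice, and Tfeb is last at 0.149 and 0.136.

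The effect of genotype was compared between male and female mice with an interaction term in edgeR, 2 mice per sex and genotype. None of the 10 genes passed an adjusted p of 0.05, and 1 had an unadjusted p under 0.05. It was Fnip1, with a log2 fold change of 0.64 in males and 1.31 in females, a difference of 0.67 (SE 0.28, edgeR p = 0.0463, adjusted p = 0.525). Among all 17178 genes 1 passed the adjusted threshold and 1583 had an unadjusted p under 0.05. Tfeb had the widest gap, 1.55 in males and -1.19 in females, but with its few counts the difference had an adjusted p of 0.676 by the same edgeR test.

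Genes for proteins that hold or regulate the Rag GTPases were called at about the share of all genes, which was 9.12% higher and 8% lower. None of 6 genes of the Ragulator scaffold and the lysosomal arginine transporter Slc38a9 was called, with a median log2 fold change of 0.09 and 1 unadjusted p under 0.05. That gene was Lamtor3, whose log2 fold change of 0.29 stayed under the fold threshold (edgeR adjusted p = 0.0239). DESeq2 called none of the 6 either. Of 20 regulators that set the nucleotide state of the Rags or sense amino acids, 2 were called higher and 1 lower, with a median of -0.12. Sesn3, a sestrin that binds the GATOR2 complex, stood at 17.4, 25.3, 24.9 and 30.4 CPM in control mice and at 55.6, 51.3, 48.4 and 60.0 CPM in Nav-Tsc2 mice. The genotypes were far apart, with a log2 fold change of 1.13 (SE 0.17, edgeR adjusted p = 0.00148). Castor2, a relative of the arginine sensor Castor1, stood at 27.5, 23.0, 37.8 and 25.2 CPM in control mice and at 57.5, 57.1, 39.7 and 58.9 CPM in Nav-Tsc2 mice. Replicate 3 of both genotypes nearly met, and the log2 fold change was 0.91 (SE 0.18, edgeR adjusted p = 0.00761). Depdc5, a subunit of GATOR1, the complex that switches RagA and RagB off, stood at 47.9, 31.4, 31.5 and 41.5 CPM in control mice and at 26.1, 23.5, 26.8 and 28.8 CPM in Nav-Tsc2 mice. It fell by 0.53 on the log2 scale (SE 0.16, edgeR adjusted p = 0.0388), and it was called in 8 of 17 other fits, not with the replicate number as a block (edgeR adjusted p = 0.0543).

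In the list of 10 mTORC1 and TSC genes, 2 were called higher and Tsc2 lower, against 9.12% and 8% of all genes, so these counts say little about the list as such. Rptor, which encodes the Raptor subunit that the Rags hold, rose from 12.7 CPM ± 1.85 (SD, n = 4) to 18.5 CPM ± 0.957 (SD, n = 4), a log2 fold change of 0.55 (edgeR adjusted p = 0.0263). Tsc1, the partner of Tsc2, rose from 13.6 CPM ± 1.64 (SD, n = 4) to 21.0 CPM ± 4.92 (SD, n = 4), a log2 fold change of 0.62 (edgeR adjusted p = 0.0443). Rptor was called in 10 and Tsc1 in 7 of 17 other fits, and with the replicate block Rptor was not called (edgeR adjusted p = 0.0683).

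Genes that act on the MiT/TFE factors, phosphatase and kinase subunits, 14-3-3 proteins and an exporter, gave 2 calls lower and none higher among 13 in edgeR, with a median of -0.05, where 8% of all genes were called lower and 9.12% higher. An unadjusted p under 0.05 in either direction was found for 7, and DESeq2 called 1 higher. Ppp3ca, the catalytic calcineurin subunit whose enzyme removes phosphate from TFEB, stood at 2478, 2715, 1703 and 2262 CPM in control mice and at 727, 724, 856 and 787 CPM in Nav-Tsc2 mice. It fell by 1.57 on the log2 scale (SE 0.14, edgeR adjusted p = 0.000114) and was called in all 17 other fits. Gsk3b, a kinase that phosphorylates TFEB, stood at 3998, 3930.4, 2694 and 2933 CPM in control mice and at 2407, 2297, 2721 and 1924 CPM in Nav-Tsc2 mice. The genotypes overlapped at replicate 3. Gsk3b fell by 0.54 on the log2 scale (SE 0.15, edgeR adjusted p = 0.0329), but not past the threshold with the replicate block (edgeR adjusted p = 0.0504). Of 13 genes for other E-box factors 12 were tested, Usf2 was called higher (log2 fold change 0.77, edgeR adjusted p = 0.0463) and Myc lower (log2 fold change -0.67, edgeR adjusted p = 0.0404), with a median of -0.07. These E-box counts were close to the shares of all genes. Neither held with the replicate block (edgeR adjusted p = 0.0762 for Usf2 and 0.10 for Myc).

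Known targets of the MiT/TFE factors, most of them lysosomal, gave many calls higher. Of 47 genes listed, 46 were tested, 19 (41.3%) were called higher and none lower, against 9.12% and 8% of all genes. The list was chosen with earlier results of these data known, so its comparisons with all genes are description only. Their median log2 fold change was 0.40, and 37 of 46 values were positive, against 50.7% of all genes tested. For 24 all Nav-Tsc2 mice lay above all control mice and for 2 below them, against 14.6% and 12.3% of all genes. Without a fold threshold 2 were lower, Lamp2 (log2 fold change -0.34, edgeR adjusted p = 0.0468) and Asah1 (-0.44, adjusted p = 0.00566). DESeq2 called none lower with the fold threshold, and the number with an unadjusted p under 0.05 in either direction was 28. Summed over the list, control mice lay between 14815 and 15918 CPM and Nav-Tsc2 mice between 24197 and 25197 CPM. Most of this rise came from Ctsb alone, with means of 4813.6 CPM in control and 11170.5 CPM in Nav-Tsc2 mice. The list holds no gene of the 10, and Atp6v0d2, an osteoclast and macrophage proton pump subunit, was at 0 in every mouse.

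The 3 targets with the smallest adjusted p were Ctsb, Cd63 and Ctsd. Ctsb, the protease cathepsin B, stood at 4851, 5275, 4631 and 4497 CPM in control mice and at 11284, 10655, 11831 and 10912 CPM in Nav-Tsc2 mice. For Ctsb this was a log2 fold change of 1.21 (SE 0.07, edgeR adjusted p = 2.12e-05), and 12.8% of its exon bases overlap Fdft1 on the other strand. Cd63, a tetraspanin of late endosomes, stood at 75.8, 78.0, 79.2 and 50.6 CPM in control mice and at 372, 336, 343 and 408 CPM in Nav-Tsc2 mice. Cd63 had the largest log2 fold change of the list, 2.36 (SE 0.15, edgeR adjusted p = 2.24e-05). Ctsd, cathepsin D, stood at 684, 774, 767 and 793 CPM in control mice and at 1545, 1525, 1456 and 1615 CPM in Nav-Tsc2 mice, with a log2 fold change of 1.03 (SE 0.07, edgeR adjusted p = 4.58e-05). In each of the 3 genes the genotypes were separated by more than the whole range within either.

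Gpnmb, a transmembrane glycoprotein much used as a readout of TFE3 and MITF activity, was more variable. It stood at 2.81, 12.7, 33.7 and 7.97 CPM in control mice and at 68.6, 29.7, 81.7 and 87.3 CPM in Nav-Tsc2 mice. Nav-Tsc2 replicate 2 lay below control replicate 3, so the genotypes overlapped. The log2 fold change was 2.22 (SE 0.65, edgeR adjusted p = 0.0371), and leaving out any of 5 mice, control replicates 2 or 4 or Nav-Tsc2 replicates 1, 3 or 4, raised the adjusted p to between 0.0801 and 0.0867. Gpnmb is also made by macrophages, whose markers are given above. The paper lists it, from an earlier study, among genes enriched in IB4-positive neurons, which the paper counted in greater number in Nav-Tsc2 ganglia. It called Gpnmb higher, while most genes of that group were unchanged there and as many rose as fell. The part of either cell type in the level of Gpnmb was not tested.

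**Figure D5:**
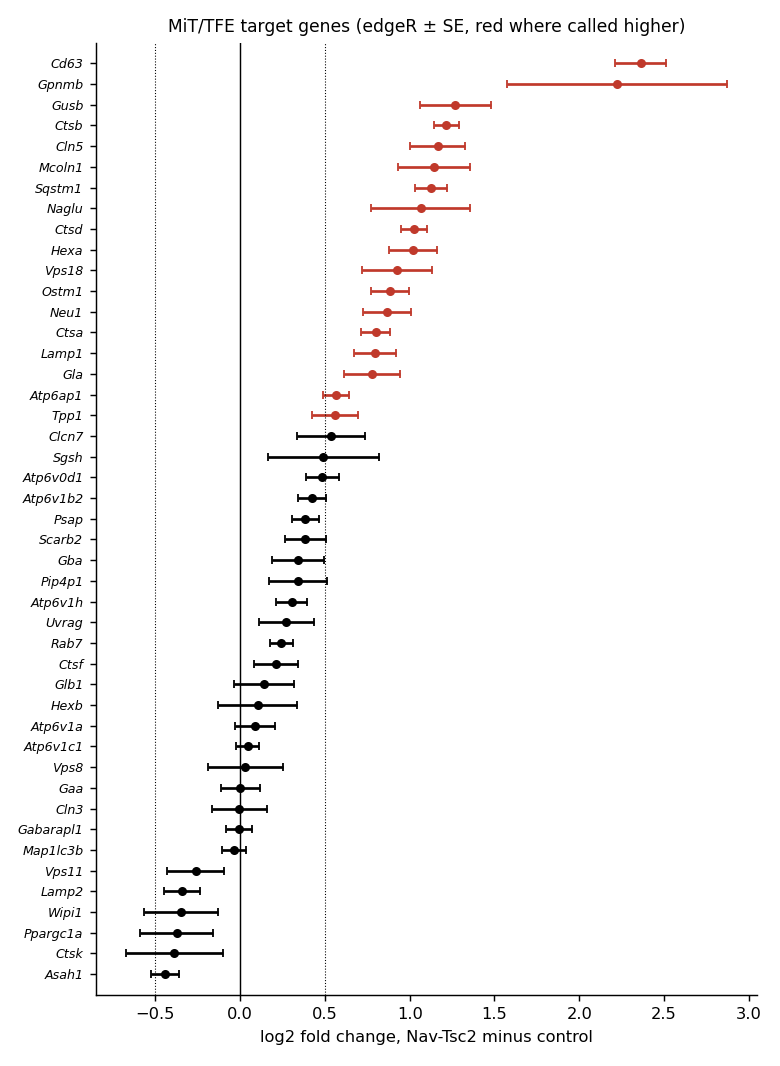
Log2 fold change, Nav-Tsc2 minus control (horizontal axis), with SE from edgeR for tested target genes of the MiT/TFE factors, sorted by size, red where called higher; dotted lines mark -0.5 and 0.5. The called genes shown run from Tpp1 at 0.56 to Cd63 at 2.36, and no gene lies below -0.5.

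The motif CACGTG was also counted by call over all tested genes with a RefSeq promoter. It stood in 164 of 1161 genes called higher (14.1%), in 81 of 1003 called lower (8.08%) and in 1068 of 9603 not called (11.1%). Among the target genes it stood in 6 of 16 called higher (37.5%) and in 9 of 20 not called (45%). These counts are given as a description, without a test. Of the 4 genes of the set that rose, Rragc and Fnip1 held the motif in the window and Rragd and Fnip2 did not, and Rragb held it without having risen. The RefSeq starts of Rragc, Fnip1, Rragb and Rragd all lie before these genes begin in the annotation used here for gene lengths. The printed stretches of Rragc, Fnip1 and Rragb end at 123917435, 54438181 and 153139960. Those genes begin at 123917446, 54438199 and 153139981 in that annotation. By it, the last Rragb motif lies before the gene.

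Over the 8 mice, the genes whose log2 CPM followed that of Fnip2 most closely among 8445 genes with a mean of at least 10 CPM were P4ha2 (Pearson r = 0.994), Atf4 (r = 0.990) and Aldh7a1 (r = 0.989). P4ha2, a collagen prolyl hydroxylase subunit, stood at a mean of 12.7 CPM in control and 31.6 CPM in Nav-Tsc2 mice. Atf4, a transcription factor of amino acid stress and mTORC1 signalling, stood at 87.3 and 199 CPM. Aldh7a1, an aldehyde dehydrogenase, stood at 25.7 and 43.7 CPM. The 8 points fall into the 2 genotypes and share their scaling, so these correlations largely describe the step between genotypes.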

How the data were processed

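RNA-seq counts came from 24 libraries of GFP-positive L4 DRG cells, 3 for each of 8 mice. The authors aligned 50-base single reads to mm10 with STAR and deposited 1 HTSeq count per gene and library, without normalization; tool versions, annotation and strand setting are not given in the sources used here. HTSeq summary rows (reads on no single gene, a median of 48.4% of control and 50.7% of Nav-Tsc2 totals) were left out. A deposited table of the authors' own DESeq2 comparison (normalized values, fold changes, p-values) was not used. No library duplicated another.

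The 3 libraries of each mouse were added up, and the sums were tested with edgeR 4.0.16 (R 4.3.3; filterByExpr, TMM scaling, quasi-likelihood test, Benjamini-Hochberg adjustment over 17178 genes). Standard errors were derived from the log2 fold change and the F statistic. The test was checked on simulated data. Alternatives used DESeq2 1.42.0 and limma 3.58.1. Exons came from GENCODE (GRCm38), promoters from RefSeq (GRCm38.p6). The mouse was the replicate. An exact test of 4 mice against 4 cannot go below 0.0286, and none was run on single genes. Depth was 47959617 to 61290435 counts per mouse. Reads had no molecular identifiers, so limits from counts cover counting error only.

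The members and lists were chosen with earlier results of these data known. Named were the 10 genes, Tsc2, Tfec, Gpnmb, in each list up to 3 genes called in each direction by smallest adjusted p, and the 3 genes most correlated with the member of smallest adjusted p. Lamtor3, Slc38a9, Lamp2, Asah1, Atp6v0d2, Rbfox3, Tpp1, Naglu and the uncalled markers fall outside that rule and were named after their values were seen. Some genes of the lists are counted but not reported here by name or in the plot of targets. The main edgeR test held genotype only. Equal replicate numbers were taken as pairs in the replicate block alone. Deviations of such mice from the genotype mean correlated at 0.184, 0.185, 0.108 and 0.199 over 8445 genes, above the limit of 0.1. Mice of the same sex with unequal numbers correlated as highly (0.0627 to 0.198), so pairing and sex cannot be told apart.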

Additional observations from a re-analysis of the deposited data

Results flagged for a closer look

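Tfeb in control replicate 3 stood at 2.24 CPM, far above the other control mice at 0.322, 0.322 and 0.482 CPM. The gap to the nearest mouse made up 0.917 of the range of the group, over the limit that Dixon's test sets for 4 samples. Of 30 groups of 4 mice looked at, this was the only one past it, where chance alone gives about 1 in 20, or 1.5. The direction of the Tfeb fold change turned without this mouse.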

How the results depend on the processing

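The 4 calls among the 10 genes were tried under 19 other settings. With an adjusted p under 0.01 in place of 0.05, 2 were called higher, and DESeq2 called 1 lower, Rragb. Leaving out each mouse in turn gave 3 to 5 called higher. Without a fold threshold 2 of the MiT/TFE targets were lower. The number of targets called higher lay between 15 and 19 when a mouse was left out. With the replicate block (a paired analysis by replicate number) 4 of the 10 genes and 18 of the targets were called higher, and it changed no member call and, in the pathway lists, no call other than those given beside the results and 1 of the targets. Leaving out single mice ended the calls of Depdc5, Rptor, Tsc1, Gsk3b, Usf2 and Myc, whose adjusted p reached 0.105, 0.0780, 0.135, 0.0904, 0.123 and 0.114, and of targets that include Naglu (0.0718) and Tpp1 (0.0537). Of 170 refitted member fold changes 156 kept their direction and side of the threshold, 4 gained and 4 lost the call, and 6 reversed. All 6 were of Tfeb: 0.35 under the replicate block, 0.17 when sex was added, 0.93 for single libraries with a random term for the mouse, and 1.03 without control replicate 3, 0.02 without Nav-Tsc2 replicate 1 and 0.22 without Nav-Tsc2 replicate 3. The fits of Tfeb that left out a mouse lay between -0.55 and 1.03. The cause was not tested. The median of the 10 genes was 0.83 for single libraries and 0.78 without control replicate 3, against 0.52. Leaving out the library with the fewest counts, an alternative chosen after seeing the data, changed no member call. The median over all genes stayed between -0.02 and 0.09. Tfeb and Mitf had the fewest counts of the 10 genes, and 4 and 2 of 12 control libraries at 0. Whether depth limits them was not tested.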

Other observations

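Further genes of the MiT/TFE target list, already counted among its calls above, were read from the same fit. Mcoln1, the lysosomal calcium channel through which calcineurin is activated, stood at 19.5, 30.4, 42.1 and 37.8 CPM in control mice and at 73.5, 71.3, 63.4 and 78.4 CPM in Nav-Tsc2 mice, with a log2 fold change of 1.14 (edgeR adjusted p = 0.00480). Sqstm1, which encodes the autophagy receptor p62, rose from 383 CPM ± 36.1 (SD, n = 4) to 835 CPM ± 65.8 (SD, n = 4), a log2 fold change of 1.13 (edgeR adjusted p = 8.16e-05), with 17.3% of its exon bases overlapped by Mrnip on the other strand. Of the proton pump subunits in the target list, Atp6ap1 alone was called higher (log2 fold change 0.57, edgeR adjusted p = 0.000921). Atp6v0d1 (0.49, edgeR adjusted p = 0.00778), Atp6v1b2 (0.42, 0.00657) and Atp6v1h (0.30, 0.0394) were higher without overlap of mice but under the fold threshold. For Atp6v1c1 and Atp6v1a the edgeR adjusted p was 0.702 and 0.657. These genes were chosen after their values were seen.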
